A study of Mus musculus with 7 samples.

Results

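The cells described here were gated neural crest cells of the mouse pharyngeal arches at embryonic day 10.5 that carried Hox group 3 transcripts, the working definition of mesenchyme of the third to the sixth arch. A cell entered when it had 1000 or more genes, at most 10% mitochondrial UMIs (unique molecular identifiers, each standing for 1 captured transcript), 2 or more UMIs of Twist1, Prrx1 and Prrx2 together, and 1 or more UMIs of Hoxa3, Hoxb3 and Hoxd3 together. It also had 0 UMIs of Sox10, Foxf1 and Emx2 and did not hold both 3 Acta2 and 3 Tagln UMIs. The rule found 5750 cells among 17527 cells passing the Twist1, Prrx1 and Prrx2 gate, 33369 filtered cells and 39401 barcodes at this stage, and 65862 barcodes in the 7 libraries of the series. Since the cells were selected on their measured UMIs of these 11 genes, those levels are no findings, and contrasts with the other gated cells are described without a test.

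The study profiled single cells of the Wnt1-Cre lineage with and without Tbx1 to see how the arch mesenchyme and the cardiac crest were altered. Both control libraries were of genotype Wnt1-Cre/+;ROSA-EGFPf/+, and all 4 libraries are labelled Swiss-Webster, which the study describes as a mixed background. Both null libraries are titled Tbx1null, and the study lists them as Wnt1-Cre/+;Tbx1-/-;ROSA-EGFPf/+, although their genotype label gives Tbx1+/-. Each library pooled at least 2 embryos, and EGFP-positive cells were sorted after the head and the first arch had been cut away, so a replicate is a pool and p-values measure the spread between pools. The study lists more embryos in each control pool than in each null pool, and the fewest somites in null replicate 1. The pools were thus not fully matched in stage, and the part of stage in the results was not tested. The tissue is labelled as arches 2 to 6 with heart for the controls and as what lies below arches 1 with heart for the nulls, and the study lists the neural tube as included in both. Wnt1-Cre marks the dorsal neural tube and all crest that leaves it, so sorted cells could be neural as well as mesenchymal, and the Tbx1 deletion was germline and not limited to the crest.

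Neural crest cells leave the hindbrain in streams and fill each pharyngeal arch with mesenchyme, which keeps a rostral to caudal address in its Hox genes. Hox group 2 genes are on from the second arch backwards, group 3 genes from the third, and groups 4 and 5 further caudally. Within an arch, Dlx genes give the proximal to distal address. The caudal arches are remodelled into the great arteries and feed cells into the cardiac outflow tract, while Tbx1 acts mostly in neighbouring pharyngeal endoderm and mesoderm.

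Promoter windows (250 bases before to 50 bases after a RefSeq start, GRCm38.p6) are shown for Bdnf and Six2, the marker genes whose levels set the gated Hox3-positive cells furthest apart, and for 3110099E03Rik, the 1 gene called between genotypes. Bdnf encodes a neurotrophin, Six2 a homeodomain factor of head and arch mesenchyme, and 3110099E03Rik is an uncharacterised locus. The motif TGATNNAT, a pattern bound by Hox proteins with Pbx partners, is in capitals on whichever strand it was found.

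Bdnf promoter window, chr2:109676782-109677081, plus strand: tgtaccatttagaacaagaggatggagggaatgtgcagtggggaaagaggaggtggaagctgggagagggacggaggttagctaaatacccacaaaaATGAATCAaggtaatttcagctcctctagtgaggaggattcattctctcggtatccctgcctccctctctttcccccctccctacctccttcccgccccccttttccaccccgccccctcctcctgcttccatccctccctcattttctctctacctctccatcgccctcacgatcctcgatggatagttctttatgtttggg
Bdnf promoter window, chr2:109692186-109692485, plus strand: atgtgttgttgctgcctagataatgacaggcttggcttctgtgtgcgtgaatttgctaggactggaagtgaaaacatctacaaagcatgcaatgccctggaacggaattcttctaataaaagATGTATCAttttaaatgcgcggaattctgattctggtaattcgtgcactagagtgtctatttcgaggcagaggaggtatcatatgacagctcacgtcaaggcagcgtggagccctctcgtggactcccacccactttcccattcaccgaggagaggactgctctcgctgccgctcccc
Six2 promoter window, chr17:85688205-85688504, minus strand: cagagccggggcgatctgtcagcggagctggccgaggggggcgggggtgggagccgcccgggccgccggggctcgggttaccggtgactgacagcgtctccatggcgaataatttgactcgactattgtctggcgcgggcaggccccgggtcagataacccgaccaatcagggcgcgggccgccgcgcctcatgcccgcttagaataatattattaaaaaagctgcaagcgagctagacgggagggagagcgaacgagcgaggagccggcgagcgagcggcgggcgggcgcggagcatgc
3110099E03Rik promoter window, chr2:115512152-115512451, minus strand: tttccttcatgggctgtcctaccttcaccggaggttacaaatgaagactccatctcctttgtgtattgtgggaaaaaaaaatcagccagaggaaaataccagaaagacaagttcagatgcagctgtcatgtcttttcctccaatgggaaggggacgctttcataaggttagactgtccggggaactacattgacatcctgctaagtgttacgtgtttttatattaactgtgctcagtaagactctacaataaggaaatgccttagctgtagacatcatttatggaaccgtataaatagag

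TGATNNAT was present once in 2 of the 7 Bdnf windows, from base 98 and base 123, and in 0 windows of Six2, 3110099E03Rik, Hoxa3 and Hoxd3. Of all 32851 promoter windows, 8.846% held it. The stricter form TGATTGAT, which TGATNNAT includes, was in 0 of these windows and in 0.746% of all. Of the other sequences sought on both strands, CAGCTG was found in the 3110099E03Rik window, 1 Bdnf window and the Hoxa3 window, against 16.301% of all. GGCGCC was found in the Hoxd3 window and 1 Bdnf window, against 11.866% of all. A match is letters in a window and not a bound site. The Six2 window was 67.33% G and C, the highest of these, and the median of all windows was 52.67%.

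The 4 libraries held 146254671 to 197398510 UMIs in 7922 to 12047 barcodes, and any pair of libraries shared 17 to 39 barcodes. Hox3-positive gated cells numbered 1102 and 1516 in control replicates 1 and 2 and 1731 and 1401 in null replicates 1 and 2, with medians of 17443 to 23984 UMIs a cell. Null replicate 2 stood apart in Ddx3y, on the Y chromosome, which was at 0 there against 15.6 to 29.8 elsewhere in CPM (UMIs of a gene summed over the cells of a library, as counts per 1000000 UMIs, here scaled with TMM factors). Of 5 sex-linked genes, 1 was higher and 3 lower in both nulls than in both controls, against 22.5% and 22.4% of all genes tested. In the cells called mesenchyme-like below, 4 of the 5 were at 0 UMIs in null replicate 2. The study did not score embryos for sex, and the part of sex in the genotype results was not tested. Null replicate 1 was made with the v3 kit and the other libraries with v3.1. The ribosomal RNA-like transcript Gm42418 was at 2837 and 5126 in the controls and 176 and 452 in the nulls, and Lars2, which has such a sequence, at 102 and 240 against 17.0 and 17.0; their part in the genotype results was not tested.

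The label of mesenchyme did not hold for all cells that met the rule. A cell was called neural-like when UMIs of 12 neural progenitor and neuron genes outnumbered those of 18 skeletogenic and matrix genes, a split chosen after the values were seen. By it 413 and 181 cells were neural-like in the controls and 742 and 810 in the nulls, which is 37.5%, 11.9%, 42.9% and 57.8% of the Hox3-positive gated cells. Both nulls were above both controls in this share, and 89 to 189 cells a library lay near the dividing line.

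Neural-like cells barely passed the gate. Their median count of Twist1, Prrx1 and Prrx2 UMIs was 3, 4, 3 and 2 in control replicates 1 and 2 and null replicates 1 and 2, against 32, 24, 52 and 42 in the remaining cells, which are called mesenchyme-like. Their median count over the 12 neural genes was 41, 24, 34 and 46, against 1, 0, 1 and 4. The split was made on these genes, so their levels are a description. Progenitor genes (Sox2, Pax6, Zic1, Zic2, Olig3 and Hes5) summed to 581 to 1279 scaled CPM in neural-like cells and 28.2 to 82.3 in mesenchyme-like cells. Cells with a high doublet score made up 27.1% and 44.2% of the neural-like cells in the controls and 20.4% and 13.2% in the nulls. Among the mesenchyme-like cells they made up 11.5% and 14.7% against 5.97% and 2.71%. Both shares were thus higher in both controls. The part of doublets in genotype results for neural-like cells was not tested.

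**Figure D1:**
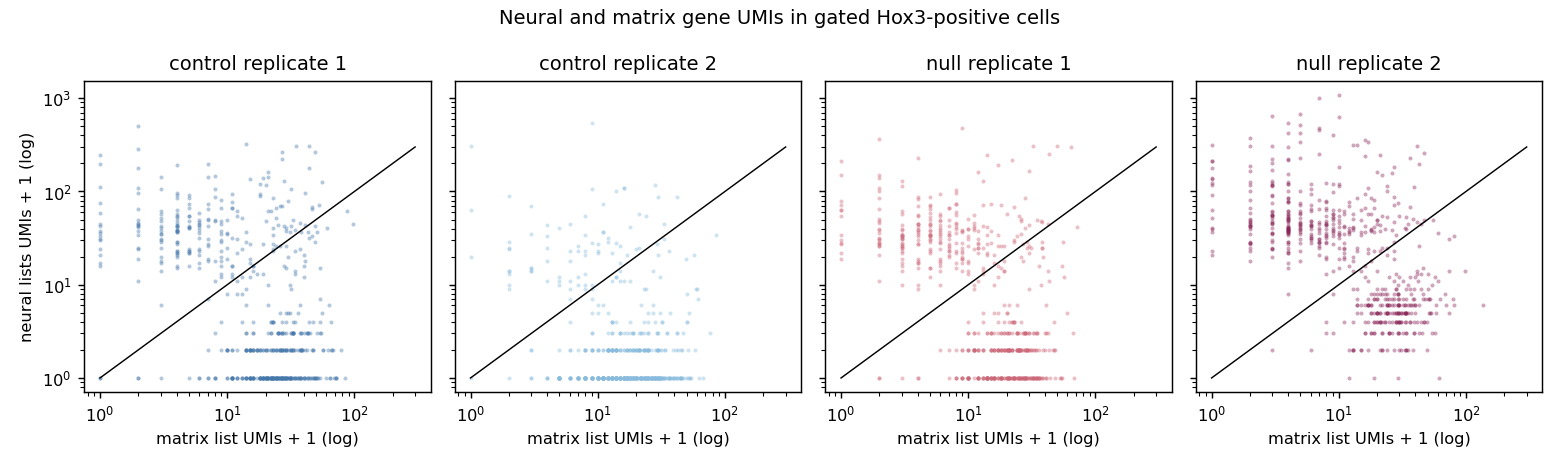
UMIs of 12 neural genes against UMIs of 18 skeletogenic and matrix genes (both plus 1, log axes) in up to 600 Hox3-positive gated cells per library; each point is a cell and the line marks equal counts. In every library a neural cloud sits above the line, at medians of 24 to 46 neural UMIs, and a mesenchymal cloud below it, at 0 to 4.

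Both clouds had been selected on Hox3 UMIs, so the shares of cells with each Hox3 gene are a description. Each cell was thinned to 5000 UMIs, which left out 3 to 13 mesenchyme-like cells a library. Hoxb3 then had a UMI in 28.6%, 36.5%, 37.2% and 33.7% of mesenchyme-like cells and in 39.8%, 31.6%, 35.1% and 50.4% of neural-like cells. Hoxd3 had one in 12.5%, 13.5%, 17.7% and 21.3% of mesenchyme-like cells and, higher in each library, in 28.0%, 16.4%, 35.5% and 32.4% of neural-like cells. Hoxb3 was also seen in 32.6% to 43.9% of Sox2-positive neural cells with 0 UMIs of Twist1, Prrx1 and Prrx2. The other markers were nearly confined to mesenchyme-like cells: Tbx2 had a UMI in 26.0% to 41.3% of them, 3.46% to 4.46% of neural-like cells and 0.432% to 2.43% of neural cells outside the gate.

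The genes that set all 5750 cells furthest above the other gated cells were therefore neural ones. Among genes at 50 or more CPM, Wnt1, a dorsal neural tube signal, had a mean log2 ratio of 2.49 (SD 0.68, 4 libraries). Msx3, Olig3, Zic1 and Hes5, regulators of neural progenitors, had 2.27, 2.24, 2.12 and 2.11. In all, 14 genes were at least 2-fold higher in each library, and 4 were without the neural-like cells. From here on, values are for the 3604 mesenchyme-like cells (689, 1335, 989 and 591) unless stated, set against other mesenchyme-like gated cells. Levels are CPM scaled with TMM (trimmed mean of M values) factors unless called plain.

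Of the 5 markers given for these cells, 4 were not used by the rule, and all 4 were higher than in other mesenchyme-like cells in each library. The markers were chosen with earlier results of these data known, so their excess is a description and no independent support for the label. Six2 (chr17:85684277-85688274, mm10) was at 25.9 and 22.2 in the controls and 34.7 and 53.7 in the nulls, against 4.20, 3.54, 10.6 and 19.4 in the other cells. Bdnf (chr2:109674700-109727007) was at 68.7, 79.7, 33.7 and 100.4 against 15.3, 15.4, 9.50 and 30.3. These are mean log2 ratios of 2.10 (SD 0.61) and 2.01 (SD 0.30) over 4 libraries.

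Meox1 (chr11:101877510-101894374), a homeobox gene of somites and caudal arches, was at 26.6, 27.3, 60.9 and 23.3 against 11.8, 10.1, 17.3 and 11.7, a mean log2 ratio of 1.34 (SD 0.35). Tbx2 (chr11:85832551-85841948), a T-box repressor, was at 104, 77.8, 132 and 97.0 against 35.5, 21.9, 57.1 and 48.2, a mean of 1.39 (SD 0.36). The excess held in all libraries, and for Six2, Bdnf and Tbx2 it was smaller in both nulls than in both controls. Across all 12331 genes at 1 or more CPM, with rule genes not removed, 12.4% were higher and 20.9% lower in the Hox3-positive cells in all 4 libraries. Their median log2 ratio was -0.02.

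Near the Hox3 threshold the markers were graded. In control replicate 1, Bdnf was at 8.53 plain CPM in cells with 0 Hox3 UMIs that met all other conditions, 32.7 in cells with 1, and 78.6 in cells with 2 or more. In null replicate 2 these values were 18.5, 70.5 and 122. Cells at the first accepted value thus lay between those on either side, in these as in the other libraries. The steps were not even. In null replicate 1 Bdnf was at 6.23, 8.67 and 38.2, so cells with 1 Hox3 UMI lay near those with 0. Members with a single Hox3 UMI were 15.3% to 31.1% of all Hox3-positive gated cells.

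The set of genes with the largest excess in the mesenchyme-like cells held factors of several families. Shox2, a homeobox gene of limb and palate mesenchyme, was at 73.0, 83.0, 21.1 and 41.3 against 9.55, 11.8, 3.596 and 6.01, the highest mean log2 ratio at 50 or more CPM (2.76, SD 0.17). Tbx3, the close relative of Tbx2, was at 48.4, 67.5, 56.3 and 56.1 against 10.6, 16.2, 30.4 and 28.3. Igfbp5, an insulin-like growth factor binding protein, had a mean log2 ratio of 1.60, the pentraxin Ptx3 1.17, the cytokine signalling inhibitor Socs2 1.18, and the zinc finger gene Tshz2 1.10. Below the level set for this ranking, Eya4, a partner of Six2, had 2.25, Slitrk6, a neuronal membrane protein, 2.13, and Alx1, a homeobox gene of frontonasal mesenchyme, 1.58. The 28 listed transcription factors of the caudal arches did not all go this way. In all 4 libraries 14 were higher and 9 lower, against 12.4% and 20.9% of all genes at 1 or more CPM. Their median log2 ratio was 0.30.

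Genes that were lower included markers of cartilage and of more rostral or distal arch cells. Col9a1, a cartilage collagen, was at 96.5, 78.1, 61.2 and 113 against 260, 225, 155 and 252, a mean log2 ratio of -1.38 (SD 0.17). Sox9, the chondrogenic regulator, had -1.21, the hedgehog receptor and target Ptch1 -1.46, Gsc, a second arch homeobox gene, -1.54, Cited1, a transcriptional coregulator, -1.48, and Plagl1, an imprinted zinc finger gene, -1.64. Of the 18 skeletogenic and matrix genes, which also defined the neural-like split, 13 were lower and 4 higher in all 4 libraries. Of 17 glycolysis and hypoxia genes, 13 were higher and 0 lower, with Ldha (lactate dehydrogenase) at 1086, 1207, 2314 and 1235 against 745, 814, 1666 and 789. Both counts stand against 12.4% of all 12331 genes at 1 or more CPM higher and 20.9% lower in all 4 libraries. Hoxa2, which is on from the second arch backwards, was nearly level between the classes, with a mean log2 ratio of 0.10 (SD 0.28).

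**Figure D2:**
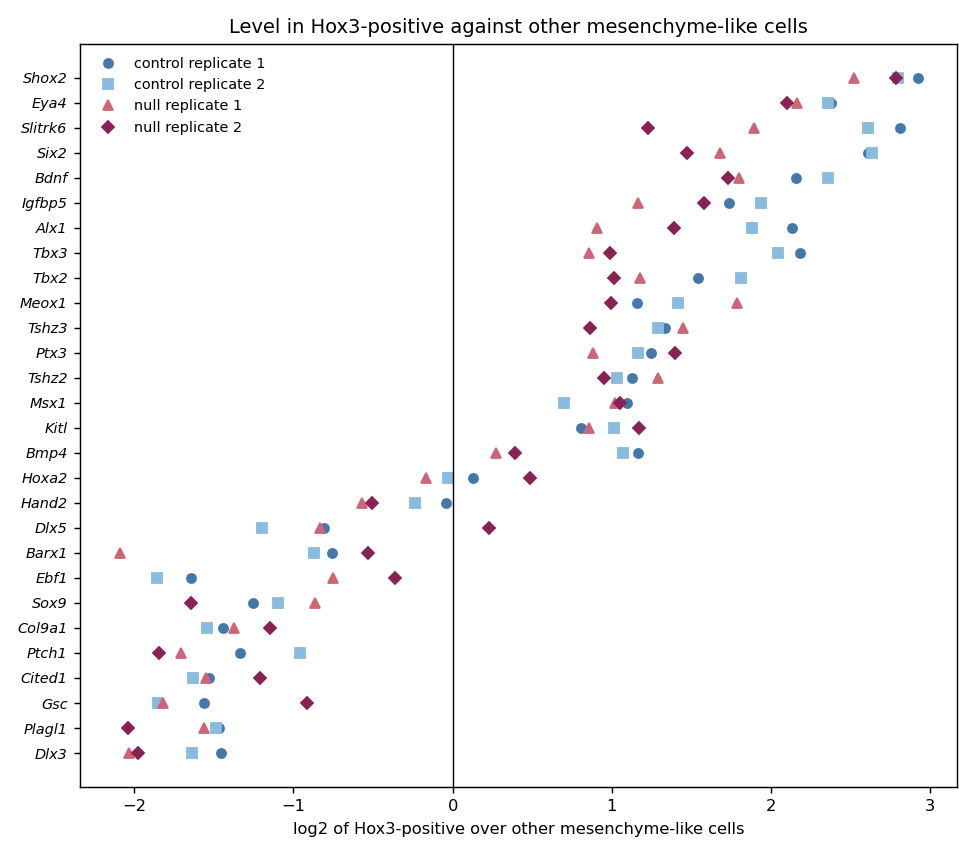
Log2 ratio of summed CPM in Hox3-positive over other mesenchyme-like cells for 28 genes, 1 point per library; the vertical line is no difference. Shox2, Eya4, Six2, Bdnf, Tbx2 and Meox1 lie right of the line in all 4 libraries, Col9a1, Ptch1, Gsc and Plagl1 lie left of it in all 4, and Hoxa2 lies on both sides.

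Markers of other cells were low in the mesenchyme-like sums. The split was made on the neuron genes, and the rule left out cells with Sox10, Foxf1 or smooth muscle transcripts. Low neuron, glial, outflow tract and smooth muscle sums are therefore partly set by selection. Blood genes summed to 0 to 5.95 scaled CPM, endothelial genes to 1.75 to 8.21, epithelial genes to 20.7 to 43.1, and smooth muscle genes to 52.2 to 91.7. Second heart field and muscle genes summed to 10.1 to 16.0 and outflow tract genes to 37.4 to 49.7. Glial genes summed to 29.4 to 52.4, against 347 to 612 in the neural-like cells. Neuron genes stood at 36.0, 27.0, 24.7 and 147, so null replicate 2 was high, and its sum for Hox groups 6 to 9, which mark spinal levels, was 11.2 against 1.37 to 2.93 elsewhere.

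Within the mesenchyme-like cells, 3 overlapping subsets were drawn at 5000 UMIs a cell. Cells with a UMI of Hoxa4, Hoxb4, Hoxc4, Hoxd4, Hoxa5, Hoxb5 or Hoxc5 were 38.1% and 42.4% of the controls and 26.7% and 40.6% of the nulls. Null replicate 1 alone was low. Without thinning the shares were 56.5%, 58.3%, 57.1% and 76.5%, so no order of genotypes is read from them. Cells with Tbx2 or Tbx3 were 40.5% and 40.1% against 51.4% and 46.9%, or 68.7%, 69.0%, 81.8% and 73.8% without thinning. Cells with Dlx5 or Dlx6 were 21.3% and 13.2% against 11.7% and 3.91%, or 39.9%, 28.0%, 25.4% and 9.14% without thinning. At both depths the control and null values did not overlap for the Tbx and the Dlx subset. At 3000 UMIs the Dlx shares did overlap (17.6% and 8.18% against 8.71% and 2.37%), and the Tbx shares did not (31.4% and 28.1% against 36.6% and 34.9%). In Sox2-positive neural cells thinned to 5000 UMIs Dlx5 had a UMI in 0.156% to 0.324%.

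**Figure D3:**
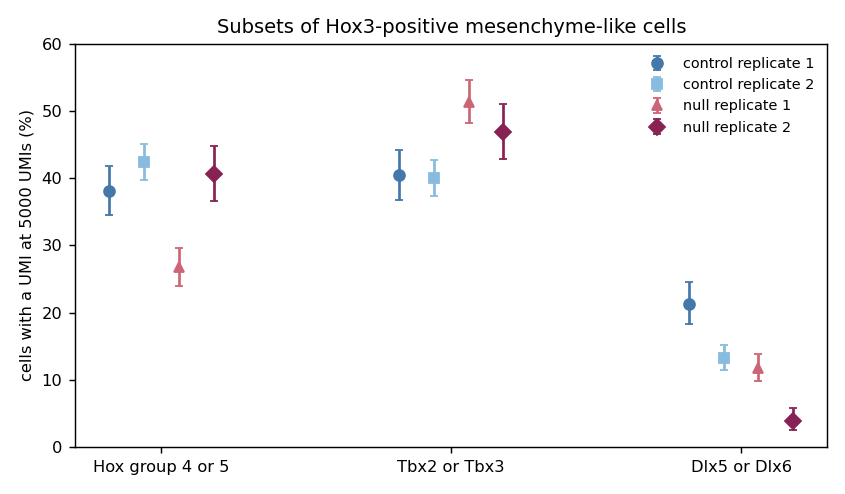
Share of Hox3-positive mesenchyme-like cells with a UMI of each gene set after thinning to 5000 UMIs, 1 point per library; bars are exact 95% binomial intervals, which cover counting error only. Null replicate 1 is lowest for Hox groups 4 and 5 at 26.7%, both nulls are highest for Tbx2 or Tbx3, and null replicate 2 is lowest for Dlx5 or Dlx6 at 3.91%.

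The subsets differed in what else they expressed, in plain CPM. Cells with Hox group 4 or 5 transcripts had more Wnt5a, a signal for directed outgrowth, at 112, 156, 53.2 and 92.0 against 49.8, 64.3, 30.2 and 67.0 in cells without. They also had more Tbx3, Plxna2, a semaphorin receptor, Osr1, a zinc finger gene of foregut mesenchyme, and Rarb, a retinoic acid receptor and target, with mean log2 ratios of 0.93, 0.96, 1.02 and 1.19. They had less Col9a1 (mean -1.01), Ebf1 (-1.17), Hand2 (-0.62) and Gsc (-1.36). The direction was the same in all 4 libraries for each of these genes.

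Cells with Dlx5 or Dlx6 were low in Bdnf and Six2, while Tbx2 and Meox1 differed in direction between libraries. Their Bdnf was 2.76, 10.3, 13.9 and 26.1 against 104, 104, 34.3 and 115 in cells without, and their Six2 2.76, 3.43, 12.2 and 17.4 against 42.1, 26.7, 34.8 and 66.9. Tbx2 had a mean log2 ratio of 0.18 (SD 0.30, n = 4) and Meox1 one of -0.25 (SD 0.94, n = 4). Hand2, a distal arch gene, was 142, 143, 179 and 365 against 71.1, 74.8, 51.8 and 66.2, and Gsc, Tshz1 and Msx1 had mean log2 ratios of 1.91, 1.02 and 0.84. Null replicate 2 held 23 such cells. The levels of Bdnf and Six2 were thus lower in cells with Dlx5 or Dlx6 UMIs in every library. Their totals are not compared, since most cells had no such UMIs.

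Cells with Tbx2 or Tbx3 had more Dkk1, a Wnt antagonist, at 89.1, 63.4, 62.1 and 52.9 against 33.0, 30.3, 21.8 and 17.9. The FGF response genes Etv4 and Spry1 had mean log2 ratios of 0.98 and 0.85, and Hand2 0.70. Ebf2 (-1.83), Rspo3 (-1.81) and the dorsal neural gene Zic1 (-2.74) were lower. Of cells in the Hox group 4 or 5 subset, 53.1%, 51.6%, 58.2% and 56.5% also had Tbx2 or Tbx3, against 32.7%, 31.6%, 49.0% and 40.4% of cells outside it, a gap in the same direction in all 4 libraries.

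Between genotypes, the targeted gene came first. Tbx1 (chr16:18580979-18590671) was at 12.2 and 11.1 in the control mesenchyme-like cells and 8.38 and 6.01 in the nulls, a log2 fold change of -0.68 (SE 0.26, adjusted p = 0.41, edgeR quasi-likelihood test, n = 2 against 2). Reads from the end of a transcript can lie outside a deletion, and where the deletion lies is not given in the sources used here, so this level checks the labels only weakly.

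One gene was called between genotypes, 0.00689% of 14509 tested over all Hox3-positive gated cells and 0.00737% of 13570 over the mesenchyme-like cells (edgeR, Benjamini-Hochberg adjusted p under 0.05). It was 3110099E03Rik (chr2:115493513-115527744) in both, at 10.0 and 10.9 in control and 0.114 and 0.33 in null mesenchyme-like cells. It fell by 5.67 on the log2 scale (SE 0.45, adjusted p = 0.00679), or by 5.30 over all the gated Hox3-positive cells (SE 0.39, adjusted p = 0.0291). It was named after its values were seen, being below the 20 CPM set for naming. In other mesenchyme-like cells it was at 52.5 and 57.6 against 0.30 and 0.203. Its call was lost when cells were thinned and chosen again on the thinned counts (log2 fold change -3.72) or needed 2 Hox3 UMIs (-4.19). Over all Hox3-positive gated cells it was lost in those settings (-4.19 and -4.33), without doublets (-4.68) and without null replicate 1 (-5.12), and the study's own filter left 0 calls in both sets of cells.

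Few genes passed the adjusted threshold. At an unadjusted p under 0.05 there were 1482 genes over all cells and 1471 over mesenchyme-like cells, and DESeq2 called 101 and 89. In neural-like cells 1 of 13387 genes was called, Gsc, at 15.0 and 23.6 against 1.02 and 1.54 (log2 fold change -3.89, SE 0.39, adjusted p = 0.0341), with 743 at an unadjusted p under 0.05. Cells of high doublet score were a larger share of the neural-like cells in both controls, and their part in this call was not tested. Leaving out 1 library moved the mesenchyme-like count to 66 (control replicate 1), 50 (control replicate 2), 71 (null replicate 1) and 277 (null replicate 2). It was 338 with no filter on low counts and 600 with the replicate number as a block. The levels below are therefore given library by library, and a gene is said to be above or below in the nulls when both null libraries lay outside both controls. That was so for 21.4% (above) and 23.8% (below) of the genes tested. On plain CPM, without TMM, 69.78% of such genes were above rather than 47.41%, a shift of 0.14 in the log2 difference of every gene. On that scale 31.1% of the genes tested were above and 13.5% below. Against that background 6 of 7 Hox genes of groups 4 and 5, 9 of 18 Dlx and distal arch genes, 4 of 11 hedgehog genes and 6 of 15 G2 and M phase genes were below, and 11 of 17 glycolysis and hypoxia genes above.

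All 7 Hox genes of groups 4 and 5 were below in the null mesenchyme-like cells, against that background of 23.8%, with 0 called by edgeR, 1 by DESeq2, 5 at an unadjusted p under 0.05 in edgeR and a median log2 fold change of -1.32. Hoxb4 (chr11:96318267-96321638) was at 41.4 and 54.6 in the controls and 11.99 and 23.4 in the nulls, a log2 fold change of -1.44 (SE 0.33, adjusted p = 0.28 in edgeR and 0.00835 in DESeq2). Hoxa4 was at 13.9 and 13.6 against 2.78 and 8.39, and Hoxd4, which overlapped between genotypes on plain CPM, at 88.4 and 83.2 against 59.7 and 72.5. Null replicate 1 was lowest for every one of the 7. After thinning, 4 of the 7 were below, against 19.8% of all genes tested. Over all gated Hox3-positive cells 0 were below and 1 above, against 22.4% and 22.5% of all genes tested. In neural-like cells 0 were below and 1 above, against 18.4% and 19.3%, and these cells held the higher Hoxb4 levels (137, 146, 99.5 and 197). The annotated spans of Hoxa4 and Hoxa5 lie inside that of Hoxa3 and the span of Hoxd4 inside that of Hoxd3, so UMIs could be split between them.

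Of 5 Hox genes of groups 1 and 2, 3 were above in the nulls and 0 below, against 21.4% and 23.8% of all genes tested. Among these 5, 0 were called by edgeR or DESeq2 and 2 had an unadjusted p under 0.05. Hoxa2 overlapped, at 90.0 and 78.8 against 87.3 and 78.5. Among those above, at low levels, were Hoxb1 and Hoxd1, Hoxb1 at 0.293 and 0.337 against 1.07 and 1.92 and Hoxd1 at 1.41 and 1.47 against 3.35 and 2.45. Of 8 Hox cofactors, Pbx2 and Meis3 were above and 0 below, and Meis1 and Meis2 overlapped.

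The Dlx and distal patterning list had 11 of 18 genes below and 2 above, against 23.8% and 21.4% of all genes tested. Of the 18, 0 were called by edgeR, 3 by DESeq2 (Barx1, Dlx4 and Dlx6) and 8 had an unadjusted p under 0.05 in edgeR. Their median log2 fold change was -0.58. Barx1, an arch homeobox gene of skeletal and stomach mesenchyme, was at 152 and 98.0 against 37.1 and 13.6 (log2 fold change -2.29, SE 0.44, adjusted p = 0.23 in edgeR and 2.18e-06 in DESeq2). Dlx5 was at 52.2 and 31.0 against 25.7 and 3.63, Dlx6 at 25.0 and 18.1 against 9.82 and 2.84, and Dlx3 at 11.1 and 9.56 against 2.25 and 0.198. Gsc was at 30.2 and 23.0 against 4.11 and 13.8, and Hand2 at 98.9 and 97.6 against 65.7 and 68.9. The proximal members Dlx1 and Dlx2 overlapped, at 49.0 and 51.6 against 71.7 and 51.3 and at 73.8 and 55.9 against 147 and 58.5. After thinning, 11 of 18 were again below, against 19.8% of all genes tested, and in the neural-like cells 11 of 18, against 18.4%. The part of doublets in the count for neural-like cells was not tested. The list sum was lower in the nulls in the other mesenchyme-like cells too. It was 1478 and 1442.5 there in the controls and 1174 and 831 in the nulls, so a fall was not particular to Hox3-positive cells.

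**Figure D4:**
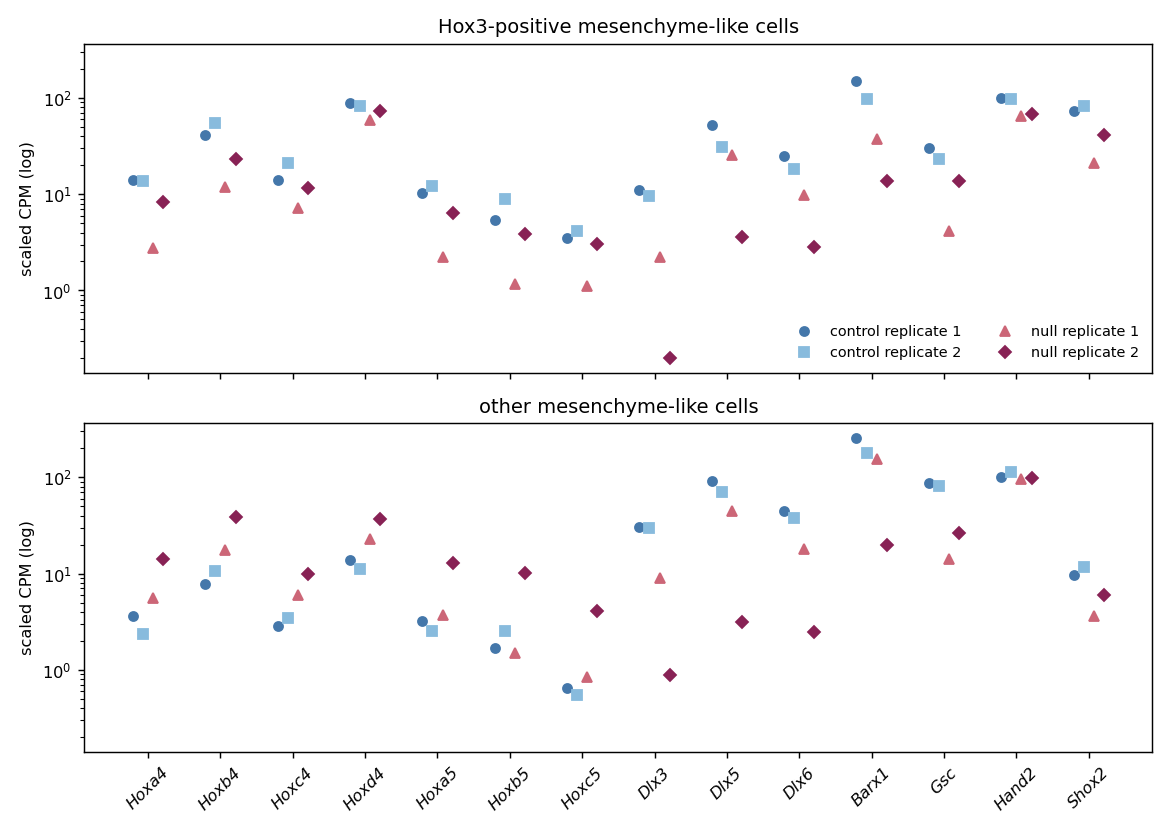
Scaled CPM (log axis) of 14 Hox, Dlx and arch genes in each library, in Hox3-positive mesenchyme-like cells (top) and other mesenchyme-like cells (bottom). In the top panel both nulls lie below both controls for every gene, though on plain CPM Hoxd4 overlaps; in the bottom panel Hoxa4 to Hoxd4 and Hoxa5 are higher in both nulls.

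Among transcription factors of the caudal arches, 7 of 27 tested were above and 4 below, close to the background, with 0 called by edgeR, 7 at an unadjusted p under 0.05 and 2 called by DESeq2, Tshz1 among them. Six2 and its partner Eya1 were above, Eya1 at 21.4 and 25.4 against 31.0 and 37.4 (Six2 log2 fold change 0.88, SE 0.27, adjusted p = 0.35). Tshz1, a zinc finger gene of arch skeleton and palate, was at 107 and 99.3 against 44.4 and 52.2 (log2 fold change -1.09, SE 0.22, adjusted p = 0.24 in edgeR and 0.00521 in DESeq2). Outside that list, Shox2 was below (log2 fold change -1.32, SE 0.32, adjusted p = 0.28 in edgeR and 0.0148 in DESeq2). Bdnf, Meox1, Tbx2 and Tbx3 overlapped between genotypes, and the levels of Meox1 and Msx2 were high in null replicate 1 alone, Msx2 at 117 against 29.2 to 41.5. Cells with an Msx2 UMI at 5000 UMIs a cell were 12.9% and 9.38% in the controls and 37.7% and 16.0% in the nulls (35.0%, 24.2%, 71.9% and 40.3% without thinning), above the controls in null replicate 2 as well, where the level was not. In Sox2-positive neural cells outside the gate the shares at 5000 UMIs were 15.5% and 11.7% in the controls and 22.9% and 10.4% in the nulls.

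Signalling lists were mixed. Their counts stand against 21.4% of all genes tested above and 23.8% below, and 89 of 13570 genes called by DESeq2. Of 11 hedgehog genes 6 were below and 0 above: Ptch1 was at 37.5 and 45.5 against 18.5 and 27.2, the target Hhip at 1.93 and 2.91 against 0.419 and 0.859, and the receptor subunit Smo overlapped. After thinning 2 of 11 were below and 1 above (18.2% and 9.09%), against 19.8% and 20.4% of all genes tested, so the share below was near that background. Of 15 retinoic acid genes 4 were above and 4 below. The degrading enzyme Cyp26a1 was at 1.93 and 3.96 against 7.54 and 10.2, and the binding protein Crabp1 at 379 and 662 against 1206 and 753. Of 12 BMP targets 4 were above and 0 below, Smad6 at 9.38 and 8.76 against 15.2 and 15.8, while Id1 and Msx1 overlapped. Of the 17 BMP ligands, receptors and antagonists 3 were above and 7 below, and Bmp4 was at 47.2 and 54.5 against 23.7 and 40.05. FGF and MAPK targets had 2 of 16 above and 6 below, FGF ligands and receptors 1 of 7 and 5, Wnt genes 4 of 21 and 5, TGF-beta and PDGF genes 3 of 12 and 3, and guidance and chemokine genes 3 of 25 and 9. In edgeR 0 of these list genes were called, and 3 hedgehog, 5 retinoic acid, 3 BMP target, 3 BMP ligand or receptor, 2 FGF target, 3 FGF ligand or receptor, 4 Wnt, 2 TGF-beta or PDGF and 2 guidance genes had an unadjusted p under 0.05. DESeq2 called 2, among them Cyp26a1 (adjusted p = 0.0405).

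Metabolic and cell cycle lists are given last. Their counts stand against 21.4% of all genes tested above and 23.8% below, or 31.1% and 13.5% on plain CPM. DESeq2 called 89 of 13570 genes. Of 17 glycolysis and hypoxia genes 9 were above and 1 below, with a median log2 fold change of 0.46, 0 called by edgeR, 5 at an unadjusted p under 0.05 and 2 called by DESeq2 (Pfkl and Bnip3). Pfkl, a phosphofructokinase, was at 127 and 91.6 against 236 and 242, and Bnip3, a hypoxia target, at 39.2 and 55.5 against 105 and 88.02. Ldha and Pgk1 were above largely through null replicate 1, Ldha at 1086 and 1207 against 2314 and 1235. Of 15 G2 and M phase genes 8 were below and 0 above, with 0 called by edgeR or DESeq2 and 0 at an unadjusted p under 0.05, and Mki67 was at 193 and 266 against 144 and 167. S phase genes had 1 of 15 above and 2 below, cell cycle inhibitors 3 of 13 above and 1 below, and heat shock and dissociation genes 1 of 13 each way. The matrix list had 9 of 18 below and 1 above.

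To ask whether genotype effects were particular to the Hox3-positive cells, the effect in them was compared with that in the other gated cells of the same libraries (edgeR interaction test, library as block). Over all cells 42 genes were called, 0.272% of 15460 tested, 9 with a more positive and 33 with a more negative effect in the Hox3-positive cells, and 2078 had an unadjusted p under 0.05. Without neural-like cells 192 genes were called, 60 positive (0.413% of 14543) and 132 negative (0.908%), with 2096 at an unadjusted p under 0.05. Leaving out 1 library gave 58 to 1145, the most without null replicate 1 and the least without control replicate 2.

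The other cells were not the same mixture in the genotypes. Cells with Hox3 UMIs that the rule left out for Sox10, Foxf1, Emx2 or smooth muscle transcripts made up 16.0% and 11.3% of the other mesenchyme-like cells in the controls and 31.9% and 54.3% in the nulls. Those with Sox10 were 1.16%, 1.87%, 14.3% and 25.7%, and those with Foxf1 8.92%, 4.33%, 18.3% and 30.4%. Those with Emx2 were fewer in the nulls, at 5.80% and 5.14% against 0.664% and 1.72%, and those with smooth muscle transcripts overlapped (2.04% and 1.04% against 0.966% and 4.04%). The other cells were then limited to those at 0 Hox3 UMIs that met all other conditions, so Sox10, Foxf1, Emx2 and smooth muscle cells were left out too. These cells at 0 Hox3 UMIs numbered 1088 and 3012 in the controls and 754 and 215 in the nulls. Against them 93 genes of 14028 were called. Of the 192 genes, 30 were called both ways, which is 15.6% of the 192 and 32.3% of the 93. The parts of the 2 limits cannot be told apart.

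All 7 Hox genes of groups 4 and 5 had a more negative effect in the Hox3-positive mesenchyme-like cells. Hoxb4 was at 7.85 and 10.5 in the other cells of the controls and 17.6 and 38.6 in those of the nulls, opposite to its direction in the Hox3-positive cells, a difference of -3.03 (log2, SE 0.09, adjusted p = 7.89e-06). Against cells at 0 Hox3 UMIs, Hoxa4 (-2.55, adjusted p = 0.0129) and Hoxb5 (-2.87, adjusted p = 0.0313) were still called, and Hoxb4 was not (-1.87, adjusted p = 0.12). In those cells Hoxb4 was at 0.933 and 2.83 plain CPM in the controls and 0.994 and 8.15 in the nulls, so null replicate 2 alone was high. Those cells were selected on Hox3 UMIs, which overlapping Hox genes could share, so these calls are no independent support. The rule genes Hoxa3, Hoxb3 and Hoxd3 define the classes and are not compared.

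Among the other negative differences, Tfap2b, a crest and sympathetic regulator, was level in Hox3-positive cells at 38.3, 52.0, 42.8 and 50.8 and stood at 9.19, 9.83, 41.8 and 57.7 in the other cells, a difference of -2.32 (SE 0.12, adjusted p = 0.000197). Phactr1, a phosphatase and actin regulator, was at 4.95 to 6.15 in Hox3-positive cells and at 6.66, 12.9, 38.1 and 47.5 in the others (-2.31, SE 0.26, adjusted p = 0.00573). Rgcc, a cell cycle regulator, and Spon1, a secreted matrix protein, had -2.34 and -1.99. Against cells at 0 Hox3 UMIs Spon1 kept its call (-1.37, adjusted p = 0.0178), while Tfap2b (-0.87, adjusted p = 0.52), Phactr1 (0.02, adjusted p = 1.00) and Rgcc (0.04, adjusted p = 1.00) did not.

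Positive differences were led by POU genes of neural crest and brain. Pou3f3, which patterns proximal arch derivatives, was at 9.08, 7.79, 7.88 and 8.79 in Hox3-positive cells and at 40.2, 59.4, 19.6 and 13.6 in the others (1.54, SE 0.28, adjusted p = 0.0419). Pou3f4 and the Pou3f3 neighbour Pantr1 had 1.87 and 1.82. Ebf1, a helix-loop-helix factor, was at 24.8, 26.2, 38.1 and 49.0 against 76.9, 94.1, 62.8 and 63.1 (1.19, SE 0.12, adjusted p = 0.00401), and Frzb, a Wnt antagonist, at 25.5, 22.2, 37.8 and 31.6 against 28.8, 22.6, 25.0 and 13.8 (0.93, SE 0.17, adjusted p = 0.0419). Against cells at 0 Hox3 UMIs none of these 5 was called by edgeR (adjusted p of 0.0798 to 0.93), with differences of -0.10 for Pou3f3, 0.99 for Pou3f4, 0.35 for Pantr1, 0.31 for Ebf1 and 0.48 for Frzb. The markers Six2, Tbx2 and Bdnf had differences of -1.05, -0.57 and -0.51 (adjusted p = 0.00483, 0.038 and 0.0419). Six2 (-0.87, adjusted p = 0.0459) and Tbx2 (-0.55, adjusted p = 0.0155) kept the call against cells at 0 Hox3 UMIs, and Bdnf (-0.44, adjusted p = 0.13) did not. Meox1 had 0.21 (adjusted p = 0.73).

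Hox3-positive cells were a larger share of the gated cells in the nulls, but the mesenchyme-like ones were not a larger share of all filtered cells. They were 29.3% and 19.9% in the controls (mean 24.6%, SD 6.67, n = 2) and 47.6% and 56.0% in the nulls (mean 51.8%, SD 5.99, n = 2), a difference of 27.2 percentage points (29.3 without cells of high doublet score; two-sided exact permutation p = 0.333, the smallest that 2 against 2 allows). Among mesenchyme-like cells the shares were 21.6% and 18.2% against 37.4% and 42.0%, a difference of 19.8 points, and 17.8 points after thinning. All Hox3-positive gated cells, neural-like ones included, were 15.0% and 14.8% of filtered cells against 19.6% and 20.2%, a difference of 5.02 points. The mesenchyme-like ones were 9.37% and 13.01% of filtered cells in the controls and 11.2% and 8.52% in the nulls, so the genotypes overlapped (difference -1.33 points, two-sided exact permutation p = 0.667). Gated cells numbered 3760 and 7628 in the controls and 3639 and 2500 in the nulls, so a larger number of Hox3-positive cells and a smaller number of other gated cells cannot be told apart from a share.

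**Figure D5:**
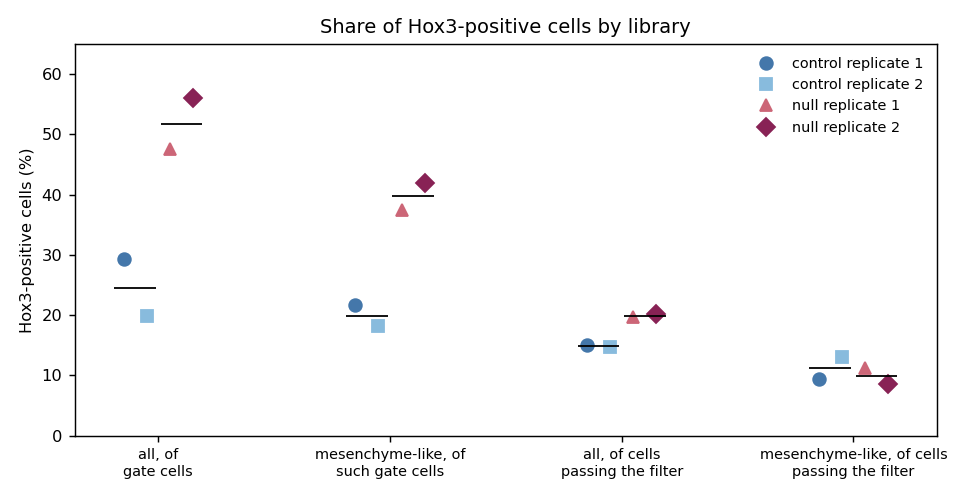
Share of Hox3-positive cells (%) in each E10.5 library, with the mean of each genotype as a line: all of them or the mesenchyme-like ones, as a share of gated cells of the same kind (left) or of all filtered cells (right). The nulls lie above the controls in the first 3 columns, by 27.2, 19.8 and 5.02 percentage points, and overlap with them in the last.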

How the data were processed

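Raw UMI counts per gene and cell, as deposited by the authors (Cell Ranger 6.0.1, mm10, per the submitters' processing notes), were read for the 4 E10.5 libraries of 7. Counts cover 32285 genes and were not normalized. Cells and gene lists were chosen with earlier results of these data known. Named genes are list genes; the 12 highest and 8 lowest class ratios at 50 or more CPM; and up to 10 called genes per direction between genotypes and 5 per sign of the interaction, at 20 or more. Neural-like cells were set apart after the values were seen. UMIs were summed per library and cell class and tested with edgeR 4.0.16 (R 4.3.3; TMM, filterByExpr, quasi-likelihood), 2 controls against 2 nulls, with DESeq2 1.42.0 as an alternative; the model was tested on simulated data. Class ratios had 0.5 UMIs added to each sum. Doublet scores came from Scrublet in scanpy 1.11.5, and the top 0.8% per 1000 barcodes were removed in an alternative. Thinning drew 5000 UMIs per cell. For the subsets and the shares of cells with a UMI, cells chosen on full counts were kept. For fits, list counts and the share of Hox3-positive cells, the rule was applied again to the thinned counts. That left 392 and 888 mesenchyme-like Hox3-positive cells in the controls and 736 and 401 in the nulls. Promoter windows came from RefSeq. Same-numbered replicates share a number and nothing else in the labels. Some list genes enter the counts and are not reported by name here.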

Additional observations from a re-analysis of the deposited data

Results flagged for a closer look

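A test of the difference itself set these genes apart: the effect of genotype in all Hox3-positive gated cells differed from that in the other gated cells (edgeR interaction, library as block, all 4 libraries). The 5 most positive differences on the log2 scale were Rspo3 0.92 (adjusted p = 0.0142), Cenpv 0.79 (adjusted p = 0.0257), Hmgn5 0.55 (adjusted p = 0.0142), Zfhx4 0.55 (adjusted p = 0.0142) and Tcf4 0.43 (adjusted p = 0.0257). Rspo3, a Wnt agonist, was at 32.1 and 31.9 scaled CPM in the control and 45.4 and 50.2 in the null Hox3-positive cells, and at 23.1, 22.2, 17.3 and 18.3 in the others. Hmgn5, a nucleosome-binding protein, was at 110, 113, 91.8 and 75.2 against 139, 146, 81.9 and 64.3, lower in both nulls in both classes. Tcf4 turned to -0.075 without neural-like cells when the other cells were limited to 0 Hox3 UMIs.

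The 5 most negative differences were Rgcc -2.46 (adjusted p = 0.0142), Tnik -2.22 (adjusted p = 0.0142), Tfap2b -2.10 (adjusted p = 0.0142), Spon1 -1.87 (adjusted p = 0.0285) and Hoxb4 -1.62 (adjusted p = 0.0142). Rgcc was at 4.03, 4.02, 1.40 and 2.31 in the Hox3-positive cells and at 8.92, 9.98, 16.6 and 32.1 in the others. Tnik, a kinase, was at 4.36, 8.81, 4.40 and 8.17 against 3.31, 5.29, 13.01 and 26.3, and Hoxb4 at 75.6, 66.1, 46.8 and 117 against 11.8, 13.4, 23.4 and 69.7. Without neural-like cells Rgcc turned to 0.23 after thinning and to 0.0438 against cells with 0 Hox3 UMIs, where Tfap2b was no longer called (-0.87, adjusted p = 0.52 in edgeR). Neural-like cells were 5.98% and 2.05% of the other gated cells in the controls and 13.2% and 25.8% in the nulls.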

How the results depend on the processing

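Alternatives were tried 1 at a time over all cells, and again on top of leaving out neural-like cells, which is 2 changes at once. Those that set neural-like cells aside, or limited the other cells to 0 Hox3 UMIs and the other conditions of the rule, were added after the data were seen. The share of Hox3-positive cells kept its direction in every setting but 1, the share of mesenchyme-like ones among all filtered cells (-1.33 percentage points). Genes called between genotypes numbered 1 over all cells, 101 by DESeq2, 3 after thinning, and 0 with 2 Hox3 UMIs, without doublets, or by the study's own filter (10% of cells and a log2 fold change of 0.25); leaving out each library in turn gave 2 to 74. Without neural-like cells these were 1 in the same fit, 338 with no filter on low counts, 89 by DESeq2, 4 after thinning, 0 with 2 Hox3 UMIs, 5 without doublets, 0 by the study's filter, and 50 to 277 without 1 library. With control replicate 1 left out it was 74 over all cells, with control replicate 2 left out 2, with null replicate 1 left out 10, and with null replicate 2 left out 7. The cause was not tested, beyond fewer UMIs or cells in the thinned and stricter settings. Same-numbered replicates deviated together only weakly (correlation 0.02, or 0.16 without neural-like cells), and a replicate block gave 6 calls over all cells and 600 without neural-like cells; the numbers mark no shared batch in the labels.

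Genes whose genotype effect differed between the classes numbered 42, 447 with no filter, 67 after thinning, 99 without doublets and 5 to 91 without 1 library (91 without control replicate 1, 25 without control replicate 2, 88 without null replicate 1 and 5 without null replicate 2). Without neural-like cells they numbered 192, and 218 with DESeq2 size factors, 969 with no filter, 71 after thinning, 248 with 2 Hox3 UMIs, 347 without doublets, 93 against cells with 0 Hox3 UMIs, and 58 to 1145 without 1 library. Rgcc turned from -2.46 to 0.23 without neural-like cells after thinning and to 0.0438 against cells with 0 Hox3 UMIs, and Tcf4 from 0.43 to -0.075 in the latter. 

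In the comparison of Hox3-positive with other gated cells, the mean log2 ratio of Stmn2, a neuron gene, turned from 1.88 to -0.13 without neural-like cells. Genes at least 2-fold higher than in the other cells in every library numbered 14, and 8 after thinning, 24 with 2 Hox3 UMIs, 4 without neural-like cells and 13 to 26 without 1 library (26 without control replicate 2). Subset shares moved with depth. Cells with Hox group 4 or 5 transcripts were 47.5% of control and 51.1% of null Hox3-positive cells on average at 5000 UMIs. The control value was 38.9% at 3000 UMIs, 63.3% unthinned and 40.2% without neural-like cells. The null value was 42.5% at 3000 UMIs, 75.1% unthinned and 33.7% without neural-like cells. For Dlx5 or Dlx6 the control mean was 14.2%, and 10.2%, 28.1% and 17.2% in those settings, and the null mean 4.46%, and 3.10%, 10.3% and 7.80%. For Tbx2 or Tbx3 the control mean was 31.6%, and 23.1%, 55.2% and 40.3%, and the null mean 27.4%, and 19.7%, 45.5% and 49.2%. So the null mean lay below the control mean for Tbx2 or Tbx3 over all cells and above it without neural-like cells.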

Other observations

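Outside the gene lists, some genes were apart between the genotypes in the Hox3-positive mesenchyme-like cells, called by DESeq2 but not by edgeR, and named here after their values were seen. Wfikkn1, a secreted antagonist of TGF-beta family ligands, was at 3.58 and 5.60 scaled CPM in the controls and 43.0 and 19.4 in the nulls. Gpx3, a secreted glutathione peroxidase, was at 19.0 and 20.4 against 51.8 and 65.4. Enpp2, which makes lysophosphatidic acid, was at 23.9 and 17.1 against 3.54 and 6.08, and Spp1, a matrix phosphoprotein, at 9.26 and 4.89 against 0.761 and 0.198. The DESeq2 log2 fold changes were 2.77, 1.59, -2.08 and -3.77, with adjusted p of 3.43e-09, 3.41e-06, 1.23e-05 and 5.46e-07. Gm42418 and Lars2 moved with genotype in the same libraries, and their part in these values was not tested.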
